A study of Mus musculus with 16 samples.

Results

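Chromatin accessibility around Myc was described in sorted mouse bone marrow HSPCs, the stem and progenitor cells of the blood. The window ran on chromosome 15 of the mm10 build from 50 kb upstream of the Myc start site to 2 Mb downstream of it, chr15:61935391-63985390. Peaks of all 16 libraries that overlapped by 1 bp or more were joined into regions, and 196 of the 296215 merged regions of the genome lay in this window. A region was called recurrent when at least 8 of the 16 libraries had a peak in it, and 63 of the 196 regions were recurrent. Regions are named by the distance of their midpoint from the Myc start site, with a plus sign for downstream.

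The libraries were made by ATAC-seq, in which a transposase cuts and tags open DNA, and each library pooled HSPCs of 2 age-matched mice of the same genotype. There were 4 genotypes with 4 libraries each, and the study's methods give their alleles. WT mice carried Ep300 fl/fl without Cre. P300KO mice carried Mx1-Cre;Ep300 fl/fl, TET2KO mice Ep300 fl/fl;Tet2-/- without Cre, and P300KO_TET2KO mice Mx1-Cre;Ep300 fl/fl;Tet2-/-. All groups share the floxed Ep300 allele, while Cre was carried only by the groups that lost p300. The methods describe poly(I:C) injections of young adult mice of every genotype and place experiments 2 weeks after them unless another time is given, so this treatment is also taken as shared. Mx1-Cre is switched on by interferon and is not limited to blood cells, and Tet2 was absent from the germ line. In every genotype, a merged file is named in the labels of replicates 1 and 2 (deposit set 1) but not in those of replicates 3 and 4 (deposit set 2), and what else differed between the sets is not given in the sources used here.

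Myc encodes a transcription factor that pairs with Max, binds E box sequences and drives cell growth and division. In the blood system, the amount of Myc sets the balance between stem cell maintenance and differentiation, and Myc is a driver of many leukaemias. Its neighbour Pvt1 is a long noncoding RNA gene whose body and promoter hold enhancers and a competing start site for them. A cluster of enhancers far downstream of Myc, in the gene-poor stretch before the Gsdmc genes, is known to be needed for Myc expression in blood stem and progenitor cells and in leukaemia cells. p300, encoded by Ep300, acetylates histones at enhancers, and Tet2 oxidises methylated cytosine.

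The reference sequences under the strongest far downstream regions are printed first, and they are the 7 distal regions of the window with the highest mean ranks among those found in all libraries. Each is 201 bases of the plus strand of GRCm38, the assembly behind mm10, centred on the median over libraries of each library's strongest summit in the region. The +1939 kb stretch is added because it was 1 of the regions called in a contrast below. Capitals mark consensus strings, which describe sequence and not binding. Both strands were searched for strings of 9 factors. The Gata string was AGATAA, with TGATAA as its other form. The Runx string was TGTGGT, with TGCGGT as its other form. The Myb string was CAACTG, with CAACGG as its other form. The Ets string was AGGAAGT, the Tal1 string was CAGATG and the Ap1 string was TGAGTCA. The Myc E box was CACGTG, the Cebp string was TTGCNNAA, and Ctcf was searched by its consensus.
+1663 kb, chr15:63648246-63648446, no string found: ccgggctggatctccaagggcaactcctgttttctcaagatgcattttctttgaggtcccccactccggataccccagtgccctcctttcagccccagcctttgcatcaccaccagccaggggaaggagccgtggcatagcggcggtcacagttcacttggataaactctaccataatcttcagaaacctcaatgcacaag
+1719 kb, chr15:63704740-63704940, no string found: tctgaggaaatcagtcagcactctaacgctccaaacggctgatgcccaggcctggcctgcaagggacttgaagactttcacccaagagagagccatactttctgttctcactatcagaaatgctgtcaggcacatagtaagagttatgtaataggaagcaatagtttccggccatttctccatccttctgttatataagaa
+1626 kb, chr15:63611255-63611455, Tal1, Gata and Myb strings in capitals, from left to right: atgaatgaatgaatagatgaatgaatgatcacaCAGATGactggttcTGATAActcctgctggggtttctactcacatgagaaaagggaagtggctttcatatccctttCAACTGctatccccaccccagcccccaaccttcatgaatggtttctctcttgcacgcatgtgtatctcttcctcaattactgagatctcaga
+1694 kb, chr15:63679028-63679228, Runx, Ap1 and Ets strings in capitals, from left to right: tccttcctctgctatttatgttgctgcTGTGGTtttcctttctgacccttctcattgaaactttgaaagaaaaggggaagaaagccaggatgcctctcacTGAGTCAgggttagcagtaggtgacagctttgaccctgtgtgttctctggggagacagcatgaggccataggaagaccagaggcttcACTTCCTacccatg
+1617 kb, chr15:63601649-63601849, no string found: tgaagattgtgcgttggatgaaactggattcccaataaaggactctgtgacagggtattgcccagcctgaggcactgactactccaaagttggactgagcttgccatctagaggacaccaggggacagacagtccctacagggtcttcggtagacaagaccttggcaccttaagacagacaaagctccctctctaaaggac
+1910 kb, chr15:63895665-63895865, no string found: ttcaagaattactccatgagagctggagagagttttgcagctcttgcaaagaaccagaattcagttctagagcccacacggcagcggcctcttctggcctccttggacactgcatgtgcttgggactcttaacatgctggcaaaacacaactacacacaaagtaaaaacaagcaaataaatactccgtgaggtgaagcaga
+1632 kb, chr15:63616917-63617117, Ets strings in capitals: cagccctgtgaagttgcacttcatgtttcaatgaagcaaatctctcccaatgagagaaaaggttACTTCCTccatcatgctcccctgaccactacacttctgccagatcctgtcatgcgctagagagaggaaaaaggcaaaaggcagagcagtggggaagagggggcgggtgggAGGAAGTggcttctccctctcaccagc
+1939 kb, chr15:63924627-63924827, a Cebp string and then overlapping Runx and Myb strings in capitals: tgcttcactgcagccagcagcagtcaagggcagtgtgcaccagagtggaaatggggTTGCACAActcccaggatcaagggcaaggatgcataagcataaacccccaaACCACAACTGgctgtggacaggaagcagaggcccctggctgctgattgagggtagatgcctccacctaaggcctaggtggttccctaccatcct
In the +1626 kb stretch, the Tal1 string began at base -67 from the summit, the Gata string at base -53 and the Myb string at base 9. In the +1694 kb stretch, the Ap1 string began on the summit base itself. In the +1939 kb stretch, the Runx string ran from base 7 to base 12 and shared its last bases with the Myb string, which ran from base 11 to base 16. All 16 libraries had their strongest summit inside each of these stretches, except the +1719 and +1910 kb stretches, where 15 did.

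Recurrent regions were not spread evenly along the window. The 100 kb around the Myc start site held 10 of them, or 100 per Mb, the highest rate of these stretches. The stretch from +50 to +500 kb, most of it the Pvt1 gene, held 18, or 40 per Mb. The next 1100 kb held only 7, or 6.36 per Mb. From +1600 to +1800 kb there were 19, or 95 per Mb, and from +1800 to +2000 kb there were 9, or 45 per Mb. Over the whole genome, recurrent regions came at 36.8 per Mb, and over the window at 30.7 per Mb.

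The longest run without a recurrent region covered 434.7 kb, from the +850 kb region to the +1285 kb region. It held 7 regions, each found in 1 library at most. Of the 18 window regions with a peak in all 16 libraries, 9 lay between +1600 and +1800 kb, 3 within 50 kb of the Myc start site, 4 between +50 and +500 kb and 2 beyond +1800 kb. Regions over 3 kb from any GENCODE start site are called distal here, and 8 of the 9 between +1600 and +1800 kb were distal. Distal regions made up 48 of the 63 recurrent regions (76.2%), beside 62.8% of the recurrent regions of the genome.

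**Figure D1:**
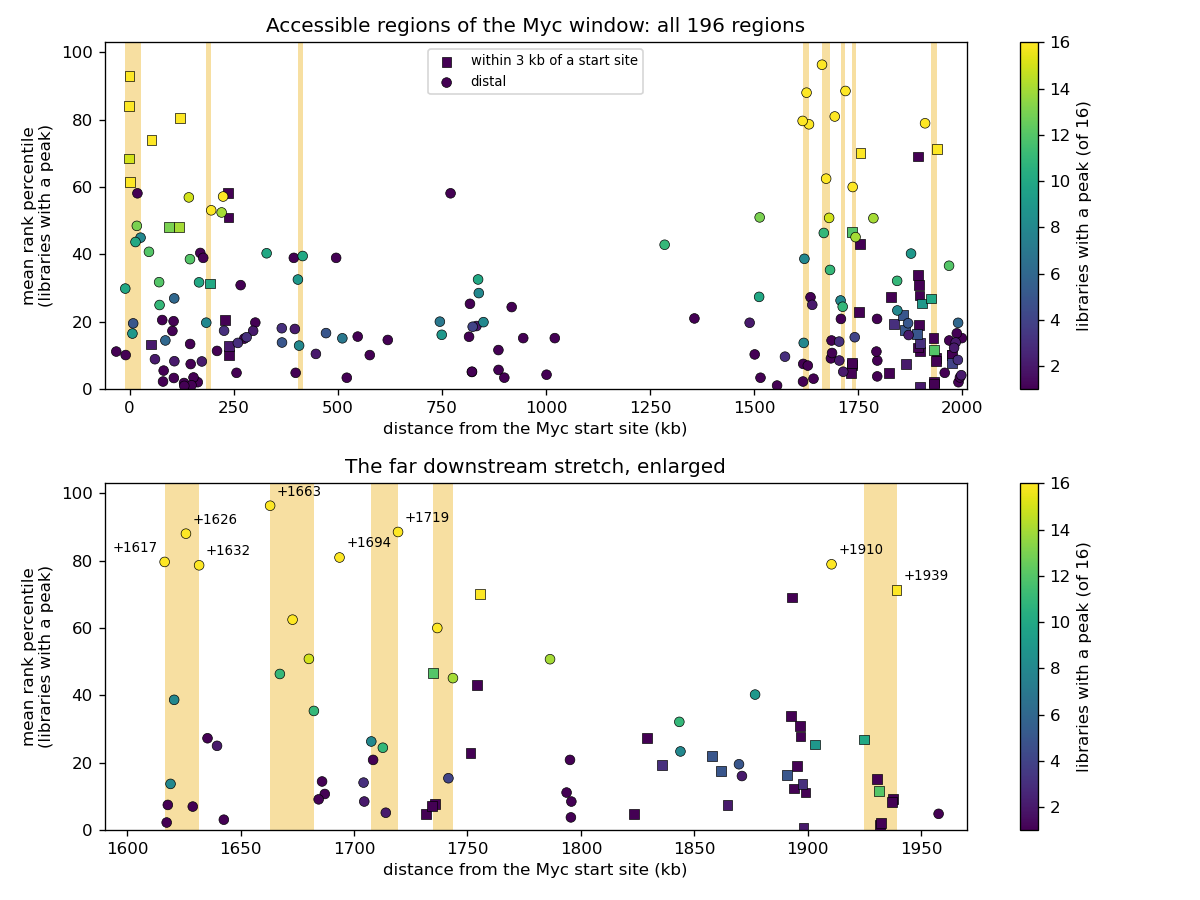
Each of the 196 regions is placed by its distance from the Myc start site (x axis, kb) and its mean rank percentile over the libraries that had it (y axis, 100 for the strongest), with colour for the number of libraries, squares for regions within 3 kb of a start site, circles for distal regions and shading for clusters. The lower panel enlarges the stretch from +1600 kb, where the +1663 kb region stands at 96.4 and the +1719 and +1626 kb regions at 88.6 and 88.1.

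The 63 recurrent regions formed 8 clusters when neighbours at most 10 kb apart were chained and at least 3 were required. The clusters held 34 of the recurrent regions. The largest, from -10.2 to +26.5 kb, held 9 regions and included the Myc start site. A cluster from +184.3 to +196.2 kb lay in introns of Pvt1 and around a start site inside it, and a weaker one from +404.4 to +415.9 kb lay beyond the Pvt1 gene. The other 5 clusters were far downstream, at +1616.5 to +1631.7 kb with 5 regions, +1663 to +1682.3 kb with 5, +1707.6 to +1719.4 kb with 3, +1734.9 to +1743.6 kb with 3 and +1924.8 to +1939.2 kb with 3.

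The annotation of the far downstream stretch was mostly noncoding. Introns of Gm41335, a long noncoding RNA gene at chr15:63176838-63718289 on the minus strand, held 17 recurrent regions, 7 of them in all 16 libraries. The gene 4930449C09Rik, also a long noncoding RNA gene, held 3. Beyond these lie the gasdermin genes Gsdmc, Gsdmc2, Gsdmc3 and Gsdmc4, which encode proteins of a pore-forming family, and then Fam49b, a regulator of actin through Rac. The body of Pvt1, at chr15:62037986-62378096, held 15 recurrent regions, of which 4 were in all 16 libraries. These counts go by the midpoint of a region, and by that measure 1 recurrent region lay inside Myc, since the Myc start region has its midpoint just upstream of the start site. Of all 63, 35 were intronic, 13 intergenic and 15 within 3 kb of a start site, and none was classed as exonic.

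Rank was used to compare peaks, because a peak list holds no read counts. Within each library, regions were ordered by their −log10 p, which measures how far a peak stands above the local background of that library, and the position was written as a percentile with 100 for the strongest. The Myc start region, chr15:61984696-61986034, covers the start site and the first exon. It ranked at 92.5, 94.1, 93.4 and 93.9 in WT replicates 1 to 4 and at 90.6, 91.1, 94.0 and 94.0 in P300KO. It ranked at 93.3, 91.9, 93.6 and 95.3 in TET2KO and at 90.5, 94.1, 93.5 and 94.0 in P300KO_TET2KO. The 16 values covered less than 5 percentile points and the genotypes overlapped. Its mean of 93.1 was above 69.7% of the 20748 promoter regions found in all 16 libraries.

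The distal region with the highest mean rank by −log10 p, at +1663 kb, ranked higher than the Myc start region in every library. It lies in an intron of Gm41335 at chr15:63647751-63649049. Its percentiles were 95.4, 97.3, 97.9 and 97.9 in WT and 93.8, 95.1, 97.1 and 97.8 in P300KO. They were 95.0, 94.2, 97.2 and 97.5 in TET2KO and 95.0, 97.3, 96.8 and 96.7 in P300KO_TET2KO. In 16 of 16 libraries it stood above the Myc start region, by between 1.67 and 4.57 percentile points. Its fold enrichment over local background, a ratio within each library, had a mean of 15.5 (7.69 to 19.5), beside 7.72 at the Myc start region, and was the higher of the pair in 16 of 16 libraries. This was not particular to it, since the +1626, +1719 and +1694 kb regions were also above the Myc start region by fold enrichment in 16 of 16 libraries, and the +1626 kb region had a higher mean than the +1663 kb region, at 17.6. Only 149 of the 18562 distal regions found in all 16 libraries of the series had a higher mean percentile.

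A further set of distal regions stood between +1617 and +1719 kb. The +1719 kb region, chr15:63704198-63705441, had a mean percentile of 88.6 over the 16 libraries (84.1 to 93.3). The +1626 kb region, chr15:63610847-63611698, had a mean of 88.1 (79.5 to 92.3). The +1694 kb region had a mean of 81.0 (72.9 to 86.2), the +1617 kb region 79.7 (72.6 to 88.1) and the +1632 kb region 78.7 (58.8 to 86.2). These 5 ranges overlap each other, and none of them reaches the lowest value of the +1663 kb region, 93.8. Over all distal regions found in 16 libraries, the median of the mean percentiles was 74.1, and over the 11 of the window it was 79.0.

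Further downstream, the +1910 kb region, in an intron of Gsdmc4, had a mean of 79.0 (58.2 to 86.3). Weaker distal regions were also found in all 16 libraries. The +1673 kb region had a mean of 62.5 (47.7 to 81.7) and the +1737 kb region 60.0 (22.1 to 70.3). In the Pvt1 gene, the +225 kb region had a mean of 57.2 (0.860 to 79.8) and the +196 kb region 53.1 (3.77 to 83.3). These Pvt1 intron regions covered a wider range between libraries than the distal regions named beyond +1600 kb. A stronger region of the Pvt1 gene found in all 16 libraries, at +121 kb, had a mean of 80.6 (65.3 to 87.1). It is not distal, since it lies within 3 kb of a Gm27718 start site, and it is named here after its values were seen.

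The region over the Pvt1 start site, at +53 kb, was accessible in all libraries. It ranked at 79.8, 73.3, 71.8 and 75.7 in WT and 75.4, 68.7, 73.8 and 70.8 in P300KO. It ranked at 73.6, 76.1, 75.0 and 68.4 in TET2KO and 75.1, 74.8, 75.6 and 77.6 in P300KO_TET2KO. The genotypes overlapped, and every percentile was below that of the Myc start region in the same library. By fold enrichment the order was mostly the reverse, with a mean of 10.5 beside 7.72 and the Pvt1 start region higher in 13 of 16 libraries. The lead region of the cluster beyond Pvt1, at +416 kb, had a peak in 2 WT, 3 P300KO, 2 TET2KO and 3 P300KO_TET2KO libraries, at percentiles between 17.8 and 60.7.

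**Figure D2:**
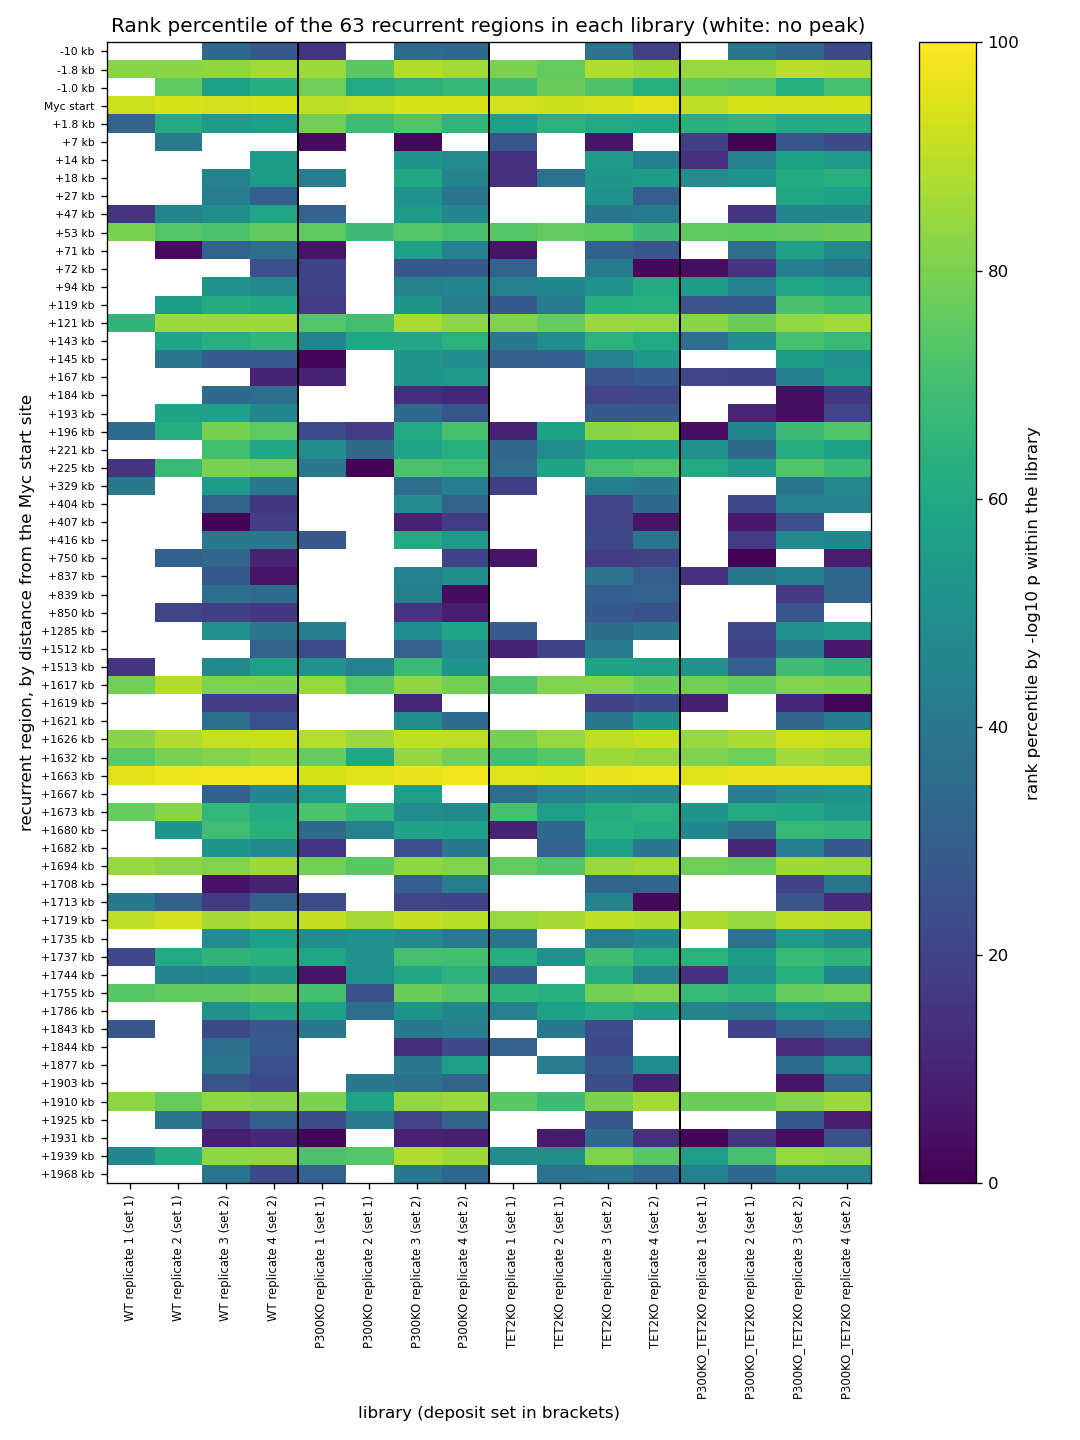
Each row is 1 of the 63 recurrent regions, ordered by distance from the Myc start site, each column 1 of the 16 libraries, and colour the rank percentile within that library, with white where the library had no peak. The Myc start region and the +1663 kb region are bright in all 16 columns, and most white cells lie in replicates 1 and 2 of each genotype, which are deposit set 1.

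The number of window regions per library followed the deposit set. WT libraries held 42, 49, 68 and 78 of the 196 regions in replicates 1 to 4, and P300KO libraries 55, 39, 82 and 79. TET2KO libraries held 45, 44, 84 and 80, and P300KO_TET2KO libraries 45, 53, 79 and 85. Every library of set 2 held more window regions than any library of set 1, with 79.4 ± 5.24 in set 2 and 46.5 ± 5.45 in set 1 (SD, n = 8 each). Of the 63 recurrent regions, 44 were found in more libraries of set 2, 1 in more of set 1 and 18 in equal numbers. In 5 regions, or 2.55% of the 196, all 8 libraries of set 2 and none of set 1 had a peak, beside 0.913% of all regions. The 5 were the +27, +184, +839, +1621 and +1708 kb regions, named here after their values were seen, and none ranked above a mean of 44.98.

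Within set 1 the genotypes overlapped, and within set 2 both WT libraries, at 68 and 78, were below the 6 others, which held 79 to 85. The means over both sets were 59.2 ± 16.6 regions for WT (SD, n = 4 for each genotype), 63.8 ± 20.5 for P300KO, 63.2 ± 21.7 for TET2KO and 65.5 ± 19.5 for P300KO_TET2KO. When each list was cut to its strongest 50000 peaks, the libraries held between 18 and 25 window regions and the set difference was gone, at 21.4 ± 1.92 in set 1 and 21.5 ± 2.07 in set 2. The genotype means were then 20.2 ± 1.71 for WT, 21 ± 2.16 for P300KO, 21.5 ± 1.73 for TET2KO and 23 ± 1.63 for P300KO_TET2KO, and their ranges overlapped.

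**Figure D3:**
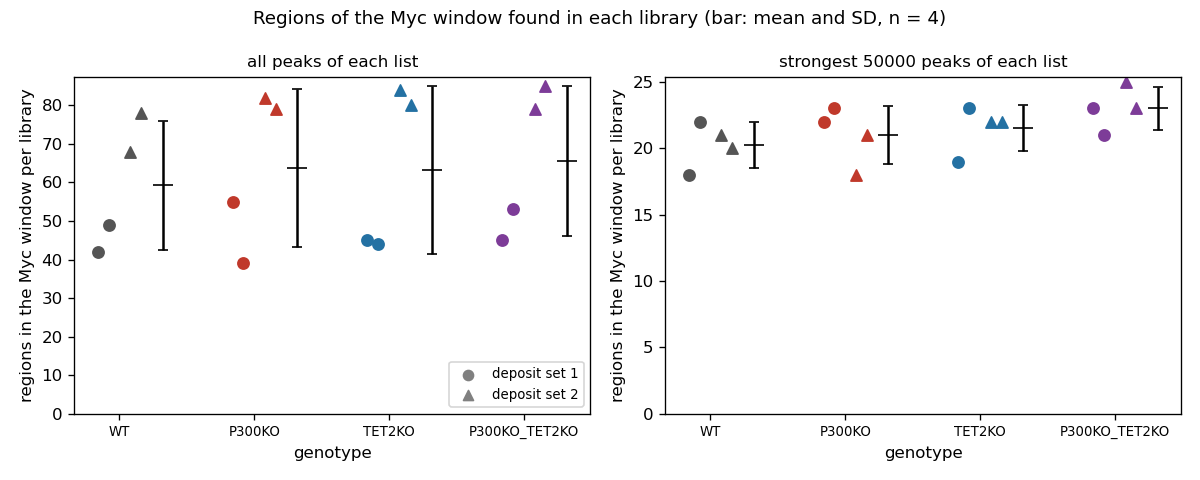
Points give the number of Myc window regions in each library (y axis) by genotype (x axis), with circles for deposit set 1, triangles for deposit set 2 and bars for the mean and SD of 4 libraries. With all peaks (left) the triangles lie between 68 and 85 and the circles between 39 and 55, and with the strongest 50000 peaks (right) all libraries lie between 18 and 25.

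Presence was compared between genotypes region by region. Regions found in 4 of 4 libraries of a genotype numbered 20 for WT, 27 for P300KO, 28 for TET2KO and 35 for P300KO_TET2KO. The shares of the 196, at 10.2, 13.8, 14.3 and 17.9%, stood beside 14.98, 19.3, 21.2 and 25.4% of all merged regions, which rise in the same order. No window region had a peak in 4 of 4 libraries of P300KO_TET2KO and 0 of 4 of TET2KO, or the reverse. This rule was met by 0.0598% of all regions as a gain and 0.0128% as a loss, so that a count of 0 among 196 is near the background. The count was also 0 for P300KO against WT, where 0.0132% of all regions were gained and 0.0105% lost. It was 0 for TET2KO against WT (0.0142 and 0.00709%), and for P300KO_TET2KO against P300KO (0.0652 and 0.0307%). These contrasts share libraries. Where a library had no peak, the site was not detected at its depth, and that depth is unknown here.

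A looser rule was 3 or 4 libraries of a genotype against 1 or 0 of the other. It gave 4 gained and 0 lost regions in P300KO_TET2KO against TET2KO (2.04 and 0% of the window, beside 1.19 and 0.522% of all regions). In P300KO against WT 5 were gained and 1 lost (2.55 and 0.51%, beside 0.747 and 0.589%). In TET2KO against WT 3 were gained and 1 lost (1.53 and 0.51%, beside 0.642 and 0.558%). In P300KO_TET2KO against P300KO 4 were gained and 1 lost (2.04 and 0.51%, beside 1.11 and 0.58%). The gained share was above that of all regions in each contrast, but it rests on 3 to 5 regions and was not tested. A region with a peak in all 16 libraries cannot meet either rule, so these counts do not bear on the strong far downstream regions, which are compared by rank below.

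The number of regions per library in each cluster overlapped between genotypes. The cluster led by the +1626 kb region had 4 ± 1.15 regions per WT library (SD, n = 4 for each genotype), 3.75 ± 0.957 per P300KO library, 4 ± 1.15 per TET2KO library and 4.25 ± 0.957 per P300KO_TET2KO library. The cluster led by the +1663 kb region had 3.75 ± 1.5, 4.25 ± 0.957, 4.75 ± 0.5 and 4.5 ± 1 in the same order. The cluster around the Myc start site had 5.75 ± 2.22, 7 ± 2.16, 7.25 ± 1.71 and 8.25 ± 0.957, and the genotypes overlapped. Between deposit sets, the cluster led by the +1719 kb region had 1.38 regions per library in set 1 and 3 in set 2.

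Rank differences between genotypes were tested with limma across all 39310 regions found in 16 libraries, 18 of them in the window, on the normal score of the rank and with the deposit set as a term. A normal score places ranks on the scale of standard deviations of a normal curve, and adjusted p-values are Benjamini-Hochberg values over all 39310 regions. In P300KO_TET2KO against TET2KO, which asks what p300 loss did without Tet2, 0 of the 18 window regions passed 0.05, beside 0.132% of all regions, and 1 had an unadjusted p under 0.05, beside 8.45% of all regions. In P300KO against WT 1 of 18 passed, beside 0.506%, and 5 did before adjustment, beside 15.1%. In TET2KO against WT and in P300KO_TET2KO against P300KO the counts were 0, beside 0.00509 and 0.15%, and before adjustment 1 and 3, beside 10.3 and 9.27%. For p300 loss averaged over both Tet2 backgrounds 2 of 18 passed, beside 2.58%, and 5 before adjustment, beside 16.9%. For Tet2 loss over both p300 backgrounds 0 passed, beside 0.784%, and 1 before adjustment, beside 13.6%. No region of the genome passed for the interaction of the losses (0% of all regions), with 1 of the 18 under 0.05 before adjustment, beside 5.21%.

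The Myc start region was in none of these calls. Its difference in normal score was -0.07 in P300KO_TET2KO against TET2KO and -0.05 in P300KO against WT (SE 0.09 for each), with limma adjusted p of 0.924 and 0.812. The Pvt1 start region differed by 0.11 and -0.08 in the same contrasts (SE 0.12 for each, adjusted p = 0.904 and 0.794 by limma). For the +1663 kb region the differences were 0.04 and -0.15 (SE 0.10 for each, adjusted p = 0.980 and 0.497 by limma), and the first of these changed sign when regions were ranked by fold enrichment. A p that misses the threshold does not show that the genotypes were alike.

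The region called in P300KO against WT lay 1.8 kb downstream of the Myc start site, inside the gene. It spans chr15:61986931-61987433, in the first intron of the longest Myc transcripts and over start sites annotated for shorter ones. Its percentiles were 32.5, 61.6, 55.4 and 56.6 in WT and 78.3, 69.1, 72.9 and 66.0 in P300KO. They were 56.5, 64.4, 61.0 and 59.7 in TET2KO and 63.6, 65.3, 61.3 and 61.4 in P300KO_TET2KO. All 4 P300KO libraries were above all 4 WT libraries, while TET2KO and P300KO_TET2KO overlapped. The difference in normal score for P300KO against WT was 0.91 (SE 0.13, adjusted p = 0.0188 by limma), with means of 71.6 ± 5.30 and 51.5 ± 13.0 percentile points (SD, n = 4 each).

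WT replicate 1 had the lowest rank of this region and also the smallest share of regions with a −log10 q of at least 2, 45.4%, beside 63.6% in WT replicate 2 and 72.5 to 97.7% in the others. Without it the difference was 0.73 (limma adjusted p = 0.0234). The percentile was higher in P300KO by 26.7 points within set 1 and by 13.5 within set 2. The call was lost when regions were ranked by fold enrichment (adjusted p = 0.0966), when regions in at least 8 libraries entered the fit (0.0727) and without the deposit set term (0.240), all by limma.

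Over both Tet2 backgrounds the +1.8 kb region was higher with p300 loss by 0.49 in normal score (SE 0.09, adjusted p = 0.0144 by limma). This call too was lost when regions were ranked by fold enrichment (limma adjusted p = 0.117) and without the deposit set term (0.285). The average joins 0.91 in P300KO against WT with 0.06 in P300KO_TET2KO against TET2KO (SE 0.13 for each), where the limma adjusted p was 0.967. Within the 4 pairings of Tet2 background and deposit set, the difference was between 0.955 and 26.7 percentile points. The interaction of p300 loss with Tet2 loss was -0.85 (SE 0.18), with a limma p of 0.00038 before and 0.937 after adjustment. A difference between the Tet2 backgrounds is therefore not shown after adjustment.

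The other call was the far downstream +1939 kb region, chr15:63923950-63925178, within the pseudogene Gsdmcl-ps between Gsdmc4 and Fam49b. Its percentiles were 46.2, 61.7, 83.1 and 83.5 in WT and 71.5, 73.2, 87.9 and 85.6 in P300KO. They were 49.4, 49.7, 80.7 and 74.6 in TET2KO and 56.0, 70.6, 84.3 and 82.6 in P300KO_TET2KO. Set 1 libraries were the lower ones in every genotype. Within each set and Tet2 background, the libraries without p300 were above those with it. Across the Tet2 backgrounds they overlapped even within a set, with P300KO_TET2KO replicate 1 below WT replicate 2 and P300KO_TET2KO replicate 4 below WT replicate 3. The difference over both backgrounds was 0.50 in normal score (SE 0.11, adjusted p = 0.0273 by limma). The mean difference was 10.3 percentile points, and within the 4 pairings of Tet2 background and deposit set it was between 3.45 and 18.4. In the single contrasts it was 0.43 in P300KO_TET2KO against TET2KO and 0.56 in P300KO against WT (SE 0.15 for each), with limma adjusted p of 0.395 and 0.109.

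This call was close to the threshold. Leaving out TET2KO replicate 4 or P300KO_TET2KO replicate 2, 3 or 4 raised the limma adjusted p to 0.0651, 0.0513, 0.0584 and 0.0524, and it was also lost with regions in at least 8 libraries (0.0684) and without the deposit set term (0.385). HSPCs are a mixture of cell types, and in pooled cells a larger share of cells with the site open and a more open site in each cell cannot be told apart.

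**Figure D4:**
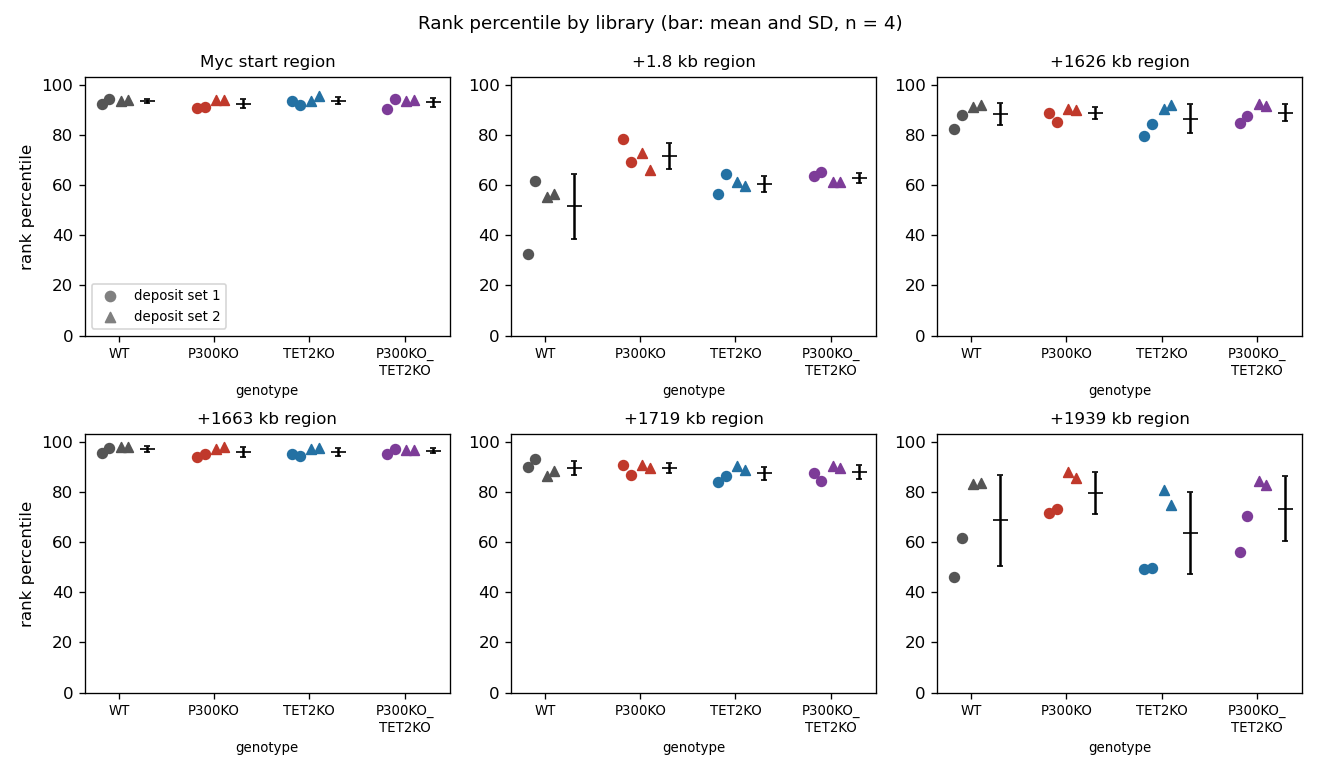
Points give the rank percentile (y axis) of 6 regions in each library by genotype (x axis), with circles for deposit set 1, triangles for deposit set 2 and bars for the mean and SD of 4 libraries. The Myc start, +1626, +1663 and +1719 kb regions overlap between the 4 genotypes, and the +1.8 kb region is highest in P300KO, at 66.0 to 78.3. The +1939 kb region separates by set, and by p300 only within a set and a Tet2 background.

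No other window region passed the limma test in any contrast of the fit described above. Some alternative settings gave other numbers of calls, as listed at the end. The +1673 kb region differed by -0.45 in normal score for p300 loss over both backgrounds (SE 0.14, unadjusted p = 0.00655 and adjusted p = 0.113 by limma), with means of 57.7 percentile points without p300 and 67.4 with it. Within the 4 pairings of Tet2 background and deposit set its difference was between -15.3 and -6.56 points. It carries separate summits, since 8 of the 16 libraries had their strongest summit over 100 bases from the median one. The +196 kb region in Pvt1 differed by -0.76 (SE 0.29, adjusted p = 0.195 by limma) in the same contrast, a larger difference with a larger error than those of the called regions. Its means were 45.5 percentile points without p300 and 60.7 with it, and its difference within the 4 pairings was between -27.9 and -8.84 points. Across the 18 window regions the median difference was -0.01 for p300 loss over both backgrounds, beside 0.01 over all regions tested, and 0.04 in P300KO_TET2KO against TET2KO, beside 0.00463.

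Sequence strings in the recurrent distal regions were counted beside those of all 63065 recurrent distal regions of the genome, in the same 201 bases. Gata strings were found in 11 of 48 (22.9%), beside 17.1%, and Ets strings, the core bound by factors such as Spi1, in 15 of 48 (31.2%), beside 23.4%. Runx strings were found in 7 of 48 (14.6%), beside 31.2%. Tal1 strings were found in 12.5%, beside 18.2%, Myb strings in 10.4%, beside 13.3%, and Cebp strings in 12.5%, beside 10.1%. Ap1, Myc E box and Ctcf strings were found in 4.17, 2.08 and 2.08%, beside 7.27, 3.69 and 7.11%. The median G and C content was 47.8%, beside 49.8%.

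The strings were unevenly shared among the far downstream regions. The +1663, +1719, +1617, +1910 and +1737 kb stretches held none of the strings. The +1632 kb stretch held Ets strings at bases -36 and 74 from the summit, and the +1673 kb stretch an Ets string at base -98 and a Cebp string at base -17. The absence of these letters from a stretch says nothing about the rest of the region or about binding.

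Genes that encode partners and rivals of Myc were accessible at their start sites in all libraries. The list held Myc, Mycn and Mycl, their partner Max, the antagonists Mxd1, Mxd3, Mxd4, Mxi1, Mnt and Mga, and the related Mlx, Mlxip and Mlxipl. For 13 of 13, a region over a start site was found in all 16 libraries, with mean percentiles between 84.4 and 99.7. None passed the limma test in any of the 7 contrasts, beside 0 to 2.58% of all regions, so that a count of 0 among 13 is near the background. The smallest adjusted p was 0.272, for Mlxip in P300KO against WT. Mycn, which stands in for Myc in some blood stem cells, ranked at a mean of 90.3 and Mycl at 84.4.

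The label of the cells was checked at start sites. Of 9 genes used as HSPC markers, 8 had a region over a start site in all 16 libraries, among them Kit, the stem cell factor receptor, and Flt3, a cytokine receptor of progenitors, and Ly6a had one in 15. Among the markers of mature blood cells reported here, Klrb1c of natural killer cells had one in 12 libraries, Cd8a of T cells in 8, Hba-a1 of red cells in 5, Cd79a of B cells in 3, and Cd3e, Ms4a1 and Ly6g in none. Of 6 markers of tissues other than blood, Cdh5 of endothelium had one in all 16 libraries, Neurod1 of neurons and endocrine cells in 14 and Myh6 of heart muscle in 1, while Alb, Ins2 and Krt5 had none. Peak lists do not show whether Ep300 or Tet2 was deleted.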

How the data were processed

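Each of the 16 ATAC-seq libraries was used through its own deposited peak list. The authors trimmed reads with cutadapt 1.9.1, aligned them to mm10 with Bowtie2 2.2.6, removed duplicates, shifted reads for the transposase and called peaks for each library with MACS2 2.1.0. The lists give, as deposited by the authors, a ratio, the fold enrichment of a peak, and for each summit its −log10 p and its −log10 q. They hold no counts, so depth is unknown and no counting interval is given. The smallest −log10 p was 2.00052.

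Summits of an interval were counted as 1 peak and ranked within the library by the highest −log10 p. Start sites came from GENCODE M21, sequences from RefSeq GRCm38.p6. limma 3.58.1 in R 4.3.3 was fitted on normal scores of ranks with the 4 genotypes and the deposit set, and its self-test on simulated data preceded the fit. Other steps used Python 3.11.15 (pandas 2.3.3, numpy 2.4.6), scipy 1.17.1 for normal scores, pysam 0.24.0 for sequences and matplotlib 3.10.9 for figures. The window, the gene and string lists and the tests were chosen with earlier results of these data known. The regions named are those over the Myc and Pvt1 start sites, the lead of each cluster, the 10 distal regions with the highest mean percentile, those gained or lost in 4 of 4 against 0 of 4 libraries, and those called by limma. Each replicate is per the labels a separate pool of 2 mice, so p-values measure the spread between such pools. Same-numbered libraries deviated together from their genotype means, with correlations between 0.167 and 0.489 over 24 pairs, but so did other numbers of the same deposit set, between 0.189 and 0.475. Alternatives were the fold rank, the percentile scale, regions in at least 8 libraries, a −log10 q of at least 2, no deposit set term, the replicate number as a block, the strongest 50000 peaks, 50% of a region covered, each deposit set alone, other cluster rules and leaving out each library. Merged peak files were not used here. Some genes of the marker lists are not reported here.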

Additional observations from a re-analysis of the deposited data

Results flagged for a closer look

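A test for samples that stand apart was run on the percentiles of the 16 named regions in each genotype, 64 groups of up to 4 libraries, and picked out 2. The test marks about 1 group in 20 by chance. At the +1737 kb region, in 4930449C09Rik, WT replicate 1 ranked at 22.1 while the other WT libraries ranked between 61.3 and 65.5. At the +1910 kb region, in Gsdmc4, WT replicate 2 ranked at 76.6 while the other WT libraries ranked between 82.3 and 83.2. These are the libraries with the smallest shares of regions at a −log10 q of at least 2, 45.4 and 63.6%, and the part of that in the ranks was not tested.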

How the results depend on the processing

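Of 478 alternative values, 320 left out 1 library. Of the other 158, 114 kept their direction and side of the threshold or moved less than the spread between replicates. A further 36 moved by more, among them counts of calls that fell to 0 in P300KO against WT. Another 7 were differences of a single region that lost their call, and 1 reversed. The replicate number as a block left 1 call in P300KO against WT and 2 for p300 loss over both Tet2 backgrounds, and this pairing changed no other call. In P300KO against WT the call fell to 0 when ranked by fold enrichment, with regions in at least 8 libraries, with a −log10 q of at least 2 and without the deposit set term. For p300 loss over both backgrounds these settings gave 1, 1, 0 and 0 calls, and for Tet2 loss regions in at least 8 libraries gave 1. At a −log10 q of at least 2 neither called region was found in all 16 libraries. For the +1663 kb region in P300KO_TET2KO against TET2KO the difference of 0.04 reversed to -0.12 by fold rank, and was between -0.0595 (without P300KO_TET2KO replicate 2) and 0.0737 when 1 library was left out. Leaving out 1 library gave 1 to 3 calls for p300 loss over both backgrounds (1 without TET2KO replicate 4 or P300KO_TET2KO replicate 2, 3 or 4), 1 in each run of P300KO against WT and 0 elsewhere.

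For presence in 4 of 4 against 0 of 4 libraries, the looser rule gave 4 gained and 0 lost regions in P300KO_TET2KO against TET2KO and 5 and 1 in P300KO against WT. It gave 3 and 1 in TET2KO against WT, then 4 and 1 in P300KO_TET2KO against P300KO. Set 1 alone gave, in this order, 3 gained and 2 lost, 3 and 1, 7 and 3, and 2 and 1, and set 2 alone 4 and 1, 4 and 3, 2 and 0, and 3 and 1. The strongest 50000 peaks gave 1 gained in the contrasts of P300KO_TET2KO with TET2KO and with P300KO, and 50% of the region covered 1 gained in that with TET2KO. Leaving out 1 library gave 0 to 2 gained against TET2KO, 0 to 1 in P300KO against WT, and 0 to 1 gained and 0 to 1 lost against P300KO. When 1 library was left out, the difference in window regions per library ranged from -4.25 to 9.17, -1.58 to 12.8, -2.92 to 10.4 and -6.50 to 8.58 regions in the same order, within a spread that includes the gap between sets. Within set 2 alone it was 7.5 in P300KO against WT and 9 in TET2KO against WT (pooled SD 5.22 and 5.39), and within set 1 alone 4.5 in P300KO_TET2KO against TET2KO (pooled SD 4.03), each larger than its spread with 2 libraries a genotype, and the others were smaller than theirs. The 8 clusters became 3 with a gap of 5 kb and 4 with at least 12 libraries, and 6 with a gap of 25 kb.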
